A study of Mus musculus with 6 samples.

Results

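The genes described are 9 selenoprotein genes, among them 4 glutathione peroxidases, and Trit1, which encodes a tRNA-modifying enzyme. They were taken by symbol from the 52550 Ensembl gene identifiers listed for every library, and all 10 were found. RNA came from colon epithelial cells of adult male mice of the Apc Min/+ strain, which carry a truncating mutation in a single copy of the tumour suppressor gene Apc and develop intestinal adenomas. Treated mice, aged 5 to 6 weeks, were gavaged every second day with atorvastatin, a statin, at 20 mg/kg (3 libraries). Control mice of the same age, sex and genotype received the vehicle, 2% Tween 80 (3 libraries). Every library thus comes from the Apc Min/+ background, and no wild-type Apc group was analysed here. The labels number the libraries as replicates without saying whether each is a separate animal, so p-values measure the spread between these libraries, which may be partly technical. The comparison asks how the statin alters RNA levels in the colon epithelium.

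Selenoproteins contain selenocysteine, an amino acid inserted at an in-frame UGA codon that would otherwise end translation. The insertion needs a dedicated tRNA, an RNA structure called the SECIS element in the 3′ UTR and its binding protein. TRIT1 attaches an isopentenyl group, made by the mevalonate pathway that statins inhibit, to a set of tRNAs that includes the selenocysteine tRNA. When selenium or the insertion machinery is limiting, a UGA codon that lies far upstream of the last exon junction can expose an mRNA to nonsense-mediated decay. Selenoprotein mRNAs differ widely in that sensitivity. In mouse colon the mRNAs of Gpx1, Selenow, Selenoh and Selenom are known to be sensitive to selenium supply, whereas those of Gpx2, Gpx4 and Txnrd1 are known as more resistant.

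The coding bases around the first selenocysteine codon of each of the 9 selenoprotein genes are shown because this codon defines the family and sets the distance to the last exon junction used below. They come from GENCODE release M21 transcripts on the GRCm38 assembly, read 5′ to 3′ along the spliced mRNA with up to 15 bases on each side, and the capitals mark the codon (TGA in DNA letters).
Gpx1: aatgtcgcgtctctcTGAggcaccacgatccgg
Gpx2: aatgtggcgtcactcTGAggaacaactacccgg
Gpx3: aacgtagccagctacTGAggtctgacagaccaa
Gpx4: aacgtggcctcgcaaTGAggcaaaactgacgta
Txnrd1: ctccagtctggctgcTGAggt
Txnrd2: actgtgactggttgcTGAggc
Selenop: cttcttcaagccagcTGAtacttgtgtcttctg
Selenow: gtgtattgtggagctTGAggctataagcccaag
Selenok: ccaatggctggtggaTGAggaagg

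The codon is followed by GG in 8 of these 9 genes, with Selenop as the exception, and in 12 of the 24 mouse selenoprotein genes. The windows of Gpx1 and Gpx2 share 27 of 33 bases, more than any other pair of the 4 peroxidases, which share 16 to 21. In Gpx1 it is codon 47, on the plus strand at chr9:108339451-108339453 (exon 1 of 2), and in Gpx2 it is codon 40, on the minus strand at chr12:76795256-76795258 (exon 1 of 2). Selenow has it at codon 13 (minus strand, chr7:15920464-15920466). Gpx4 has it at codon 129 of the long coding transcript shown (plus strand, chr10:80054737-80054739), and the codon number would be lower on a form with a shorter start. The thioredoxin reductases have it next to the end of the coding sequence, at codon 498 of the Txnrd1 transcript shown and at codon 526 of Txnrd2. Selenop carries 10 such codons, the first at codon 59 and the other 9 at codons 259 to 377, in the last exon. Measured on these transcripts, the first codon ends 102 to 357 bases upstream of the last exon junction in Gpx1, Gpx2, Gpx3, Gpx4, Selenop and Selenow, 83 bases upstream in Txnrd2 and 5 bases upstream in Selenok. In Txnrd1 it lies in the last exon. Trit1 has no selenocysteine codon.

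**Figure D1:**
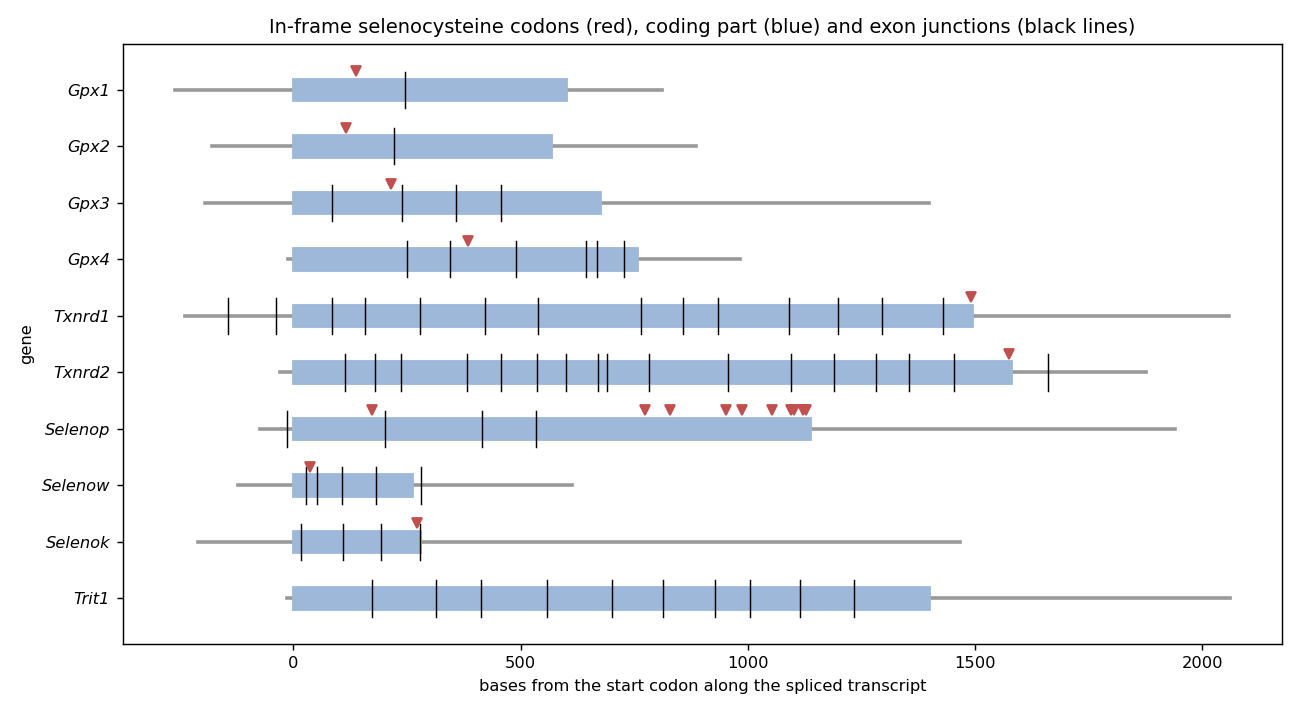
Spliced transcripts of the 10 genes drawn to scale, with bases from the start codon on the horizontal axis, the coding part in blue, untranslated parts in grey, exon junctions as black lines and selenocysteine codons as red triangles. On the transcripts drawn, the codon sits early in Gpx1, Gpx2, Gpx3 and Selenow and at the end in Txnrd1, Txnrd2 and Selenok. Selenop has 10, and Trit1 has none.

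The libraries listed 11456 to 11655 genes at 1 FPKM or more. FPKM, the unit the authors deposited, is a fragment count scaled to gene length and library depth, so that levels can be compared between genes. All 7 epithelial markers were abundant, with a summed level of 5253 to 5430 FPKM in atorvastatin and 5527 to 5652 FPKM in control libraries, and 9 of 10 stromal markers stayed under 1 FPKM in every library. The summed epithelial markers, proliferation markers and mitochondrial ribosomal RNA did not overlap between the groups, the epithelial sum being lower in every atorvastatin library. Among single epithelial markers the groups were apart only for Krt8, the most abundant, with means of 2700 FPKM in atorvastatin and 2822 FPKM in control libraries. Krt18 went the other way, with means of 360 FPKM in atorvastatin and 344 FPKM in control libraries. The 6 crypt and proliferation markers summed to 69.9 to 84.6 FPKM in atorvastatin and 49.3 to 62.9 FPKM in control libraries, and the 2 mitochondrial ribosomal RNAs, mt-Rnr1 and mt-Rnr2, to 2454 to 3248 FPKM in atorvastatin and 3906 to 5168 FPKM in control libraries. Their part in the results below was not tested.

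None of the 9 genes that could be tested passed the test between atorvastatin and control. Differences were tested with limma on log2(FPKM + 1) over the 11644 genes that reached 1 FPKM in 3 or more libraries, and a gene was called at a Benjamini-Hochberg adjusted p under 0.05. Gpx3 lay under that level, which left 9 of the 10 genes tested and 0 called, beside 47 called genes in all (0.404%), of which 18 were higher (0.155%) and 29 lower (0.249%) in atorvastatin, or 15 higher and 39 lower with totals made equal outside the most abundant and mitochondrial genes. At an unadjusted p under 0.05 there was 1 of 9 (Selenow), against 12% of all tested genes, and limma without trend and robust options also called 0 of the 9. The groups did not overlap for 2 of the 9, against 18.1% of all tested genes: Trit1 was higher in every atorvastatin library, as were 12% of tested genes, and Selenow lower, as were 6.05%. Of the 9 fold changes 4 were positive and 5 negative, with a median of -0.027 on the log2 scale, against 57.3% positive and a median of 0.018 over all tested genes.

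**Figure D2:**
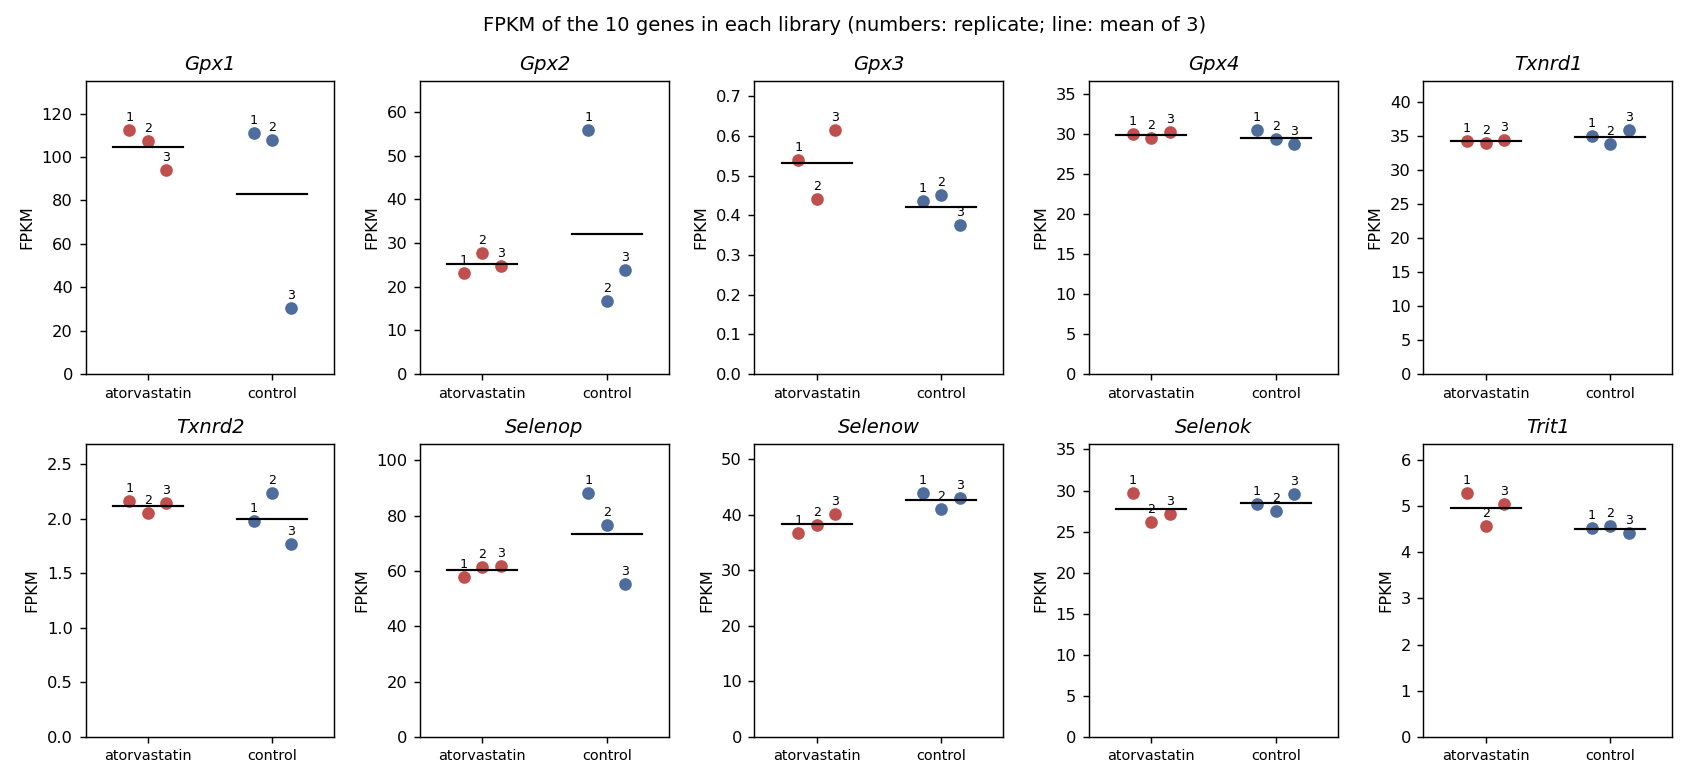
FPKM of each of the 10 genes (vertical axes, each from 0) in the 3 atorvastatin libraries (red, left) and the 3 control libraries (blue, right), with replicate numbers beside the points and the group mean as a line. Gpx1 in control replicate 3 (30.3 FPKM) and Gpx2 in control replicate 1 (55.9 FPKM) stand apart from the other libraries, while Gpx4 and Txnrd1 are nearly level.

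By mean level over the 6 libraries the order was Gpx1, Selenop, Selenow, Txnrd1, Gpx4, Gpx2, Selenok, Trit1, Txnrd2 and Gpx3, at 93.8, 66.9, 40.5, 34.6, 29.7, 28.6, 28.1, 4.74, 2.06 and 0.477 FPKM. The ranges over libraries overlapped between the neighbours Gpx1 and Selenop, Gpx4 and Gpx2, and Gpx2 and Selenok. They did not overlap for the other 6 pairs of neighbours. The 9 selenoprotein genes held 62.9% to 63.0% of the summed FPKM of all 24 mouse selenoprotein genes in atorvastatin libraries and 57.5% to 68.4% in control libraries.

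Gpx1 encodes the ubiquitous cytosolic glutathione peroxidase, which reduces hydrogen peroxide with glutathione (ENSMUSG00000063856, chromosome 9, 108338903 to 108340343, plus strand). Its level was 112, 107 and 93.9 FPKM in atorvastatin replicates 1 to 3 and 111, 108 and 30.3 FPKM in control replicates 1 to 3. Of the 6 libraries 5 lay close together and control replicate 3 lay far below them, so the groups overlapped. The means were 105 ± 9.58 FPKM in atorvastatin and 83.0 ± 45.7 FPKM in control (SD, n = 3 each), with a log2 fold change of 0.54 ± 0.48 (standard error, 95% interval -0.63 to 1.70, limma adjusted p = 0.738). Without control replicate 3 the log2 fold change of Gpx1 was -0.068 (limma adjusted p = 0.809), so the positive sign rests on that library. Its level there was 0.323 times the next lowest library. Among the 4093 tested genes averaging 10 FPKM or more, Gpx1 was the only one for which control replicate 3 was that far below the other 5 libraries, a comparison chosen after its values were seen. No other annotated gene overlaps the span of Gpx1, and no transcript of another gene matched it over 100 bases or more at 90% identity or more.

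Gpx2 encodes the gastrointestinal glutathione peroxidase, which is found mainly in the epithelium of the gut, is strongest in the crypts, and is a known target of WNT signalling and of NRF2, the factor that drives antioxidant genes (ENSMUSG00000042808, chromosome 12, 76792333 to 76795554, minus strand). It had 23.2, 27.7 and 24.7 FPKM in atorvastatin libraries and 55.9, 16.7 and 23.7 FPKM in control libraries. Control replicate 1 was the highest and control replicate 2 the lowest of all 6, and the 3 atorvastatin libraries fell between them. The means were 25.2 ± 2.26 FPKM in atorvastatin and 32.1 ± 20.9 FPKM in control (SD, n = 3 each). The log2 fold change was -0.16 ± 0.40 (95% interval -1.13 to 0.81, limma adjusted p = 0.919), and 0.32 without control replicate 1 (limma adjusted p = 0.601). Control replicate 1 was 2.02 times the next highest library, and Gpx2 was the only one of the 4093 genes for which that library stood so far above the others, again a comparison chosen after the values were seen. Within control libraries, the SD of log2(FPKM + 1) was 0.87 for Gpx2 and 1.05 for Gpx1, a spread reached by 0.240% and 0.129% of tested genes.

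Reads of Gpx2 may be shared with 2 other loci. Its whole span lies within that of Fntb, on the opposite strand, which encodes the beta subunit of protein farnesyltransferase and had 3.90, 4.50 and 4.14 FPKM in atorvastatin and 3.38, 3.44 and 3.64 FPKM in control libraries. Whether the counting used strand is not given in the sources used here. A processed pseudogene, Gpx2-ps1, which matches Gpx2 at 98.1% over 572 bases, was at 0.169 to 0.334 FPKM in atorvastatin and 0.365 to 0.408 FPKM in control libraries. Like Gpx2, the pseudogene was highest in control replicate 1, at 0.408 FPKM, but control replicates 2 and 3 were close to it, at 0.365 and 0.384 FPKM. It was lowest in atorvastatin replicate 2, whereas Gpx2 was lowest in control replicate 2. Both loci were lower than Gpx2 in every library, and the part of shared reads in the level of Gpx2 was not tested.

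Gpx4 encodes the phospholipid hydroperoxide glutathione peroxidase, which reduces lipid peroxides in membranes and guards cells against ferroptosis, an iron-dependent form of cell death (ENSMUSG00000075706, chromosome 10, 80047166 to 80056439, plus strand). It had 30.0, 29.5 and 30.2 FPKM in atorvastatin and 30.5, 29.3 and 28.8 FPKM in control libraries. All 6 values lay within 1.06-fold of each other. The log2 fold change was 0.019 ± 0.048 (95% interval -0.094 to 0.13, limma adjusted p = 0.921), and it was slightly negative, at -0.0034, under median-ratio scaling. A transcript of Gpx4-ps2 matches that of Gpx4 at 99.7% over 733 bases and was listed at 7.63 to 9.54 FPKM in atorvastatin and 8.17 to 9.64 FPKM in control libraries. Whether reads were shared between these copies was not tested.

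Gpx3, the secreted plasma glutathione peroxidase that is made mainly in kidney (ENSMUSG00000018339, chromosome 11, 54902453 to 54910377, plus strand), was the lowest of the 10. It was at 0.540, 0.440 and 0.615 FPKM in atorvastatin and 0.437, 0.452 and 0.375 FPKM in control libraries. The groups overlapped, and all 6 values were under 1 FPKM. With no filter on low values its log2 fold change was 0.11 (95% interval -0.05 to 0.27, limma adjusted p = 0.758). Among the family members that have no selenocysteine in mouse, Gpx5 and Gpx6 were listed at 0 in all 6 libraries, and Gpx7 and Gpx8 stayed under 1 FPKM.

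The summed FPKM of the 4 selenium-dependent peroxidases was 166, 165 and 149 in atorvastatin and 198, 154 and 83.2 in control libraries. Gpx1 made up 67.6%, 65.1% and 62.8% of that sum in atorvastatin and 56.1%, 69.9% and 36.5% in control libraries. The atorvastatin libraries were alike in this make-up. The control libraries were not, since control replicate 3 was low in Gpx1 and control replicate 1 high in Gpx2.

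**Figure D3:**
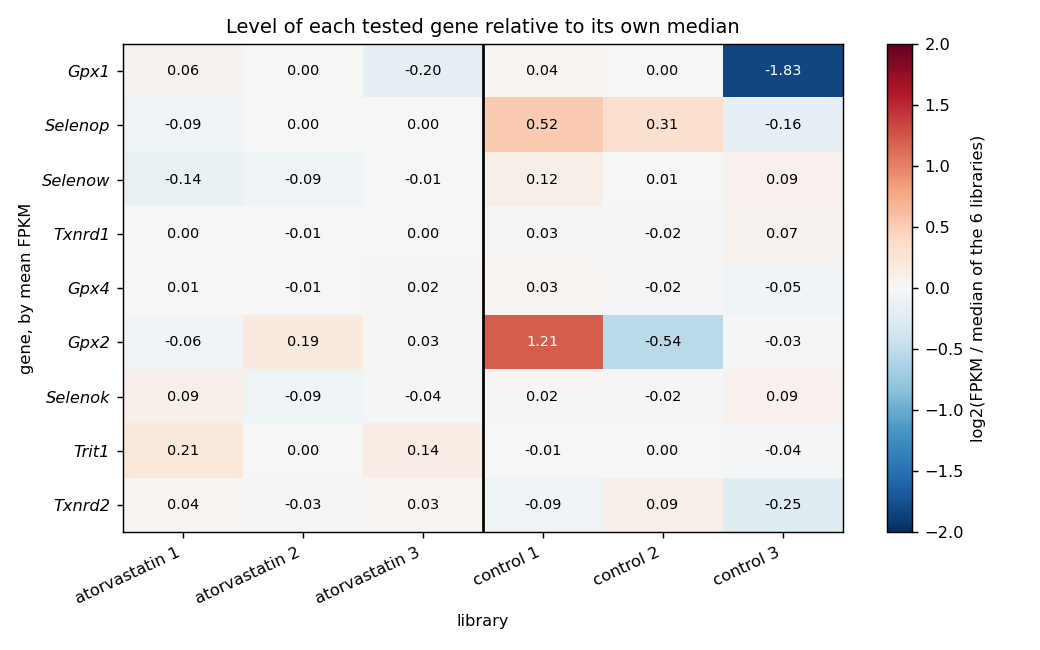
Log2 ratio of FPKM to each gene's own median over the 6 libraries, for the 9 tested genes (rows, by mean level) in the 3 atorvastatin (left) and 3 control (right) libraries. The strongest departures are Gpx1 in control replicate 3 (-1.83) and Gpx2 in control replicate 1 (1.21), followed by Gpx2 in control replicate 2 (-0.54) and Selenop in control replicates 1 and 2 (0.52 and 0.31).

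The thioredoxin reductases, which use NADPH to regenerate reduced thioredoxin, showed little difference. Txnrd1, the cytosolic enzyme and another NRF2 target (ENSMUSG00000020250, chromosome 10, 82833951 to 82897712, plus strand), had 34.3, 34.1 and 34.4 FPKM in atorvastatin and 35.0, 33.9 and 36.0 FPKM in control libraries. The 3 atorvastatin values lay within the control range, and the log2 fold change was -0.027 ± 0.048 (95% interval -0.14 to 0.085, limma adjusted p = 0.884). The SD of log2(FPKM + 1) of Txnrd1 within atorvastatin libraries was 0.0078, and 99.2% of tested genes had at least that spread. Eid3, which lies within the Txnrd1 gene on the same strand, was at 0.566 to 0.678 FPKM in atorvastatin and 0.810 to 0.949 FPKM in control libraries. On the opposite strand, the non-coding gene Gm38560 was at 0.473 to 0.778 FPKM in atorvastatin and 0.738 to 1.21 FPKM in control libraries, and Gm47073 stayed under 0.05 FPKM. Txnrd2, the mitochondrial enzyme (ENSMUSG00000075704, chromosome 16, 18426384 to 18479073, plus strand), had 2.16, 2.05 and 2.15 FPKM in atorvastatin and 1.98, 2.24 and 1.77 FPKM in control libraries. The groups overlapped, with a log2 fold change of 0.062 ± 0.076 (95% interval -0.12 to 0.24, limma adjusted p = 0.816).

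Selenop encodes selenoprotein P, the secreted carrier of selenium in plasma, made mainly by the liver and also by other tissues (ENSMUSG00000064373, chromosome 15, 3268547 to 3280508, plus strand). It was at 57.9, 61.4 and 61.7 FPKM in atorvastatin and 88.4, 76.5 and 55.2 FPKM in control libraries. Control replicates 1 and 2 were the highest, and control replicate 3 was the lowest of all 6. The means were 60.4 ± 2.09 FPKM in atorvastatin and 73.3 ± 16.8 FPKM in control (SD, n = 3 each), with a log2 fold change of -0.25 ± 0.16 (95% interval -0.63 to 0.13, limma adjusted p = 0.609). Without control replicate 3 it was -0.44 (limma adjusted p = 0.0898), and without control replicate 1 it was -0.11 (limma adjusted p = 0.867). Ccdc152, which overlaps the last 439 bases of Selenop on the opposite strand, stayed at 0.0345 to 0.0925 FPKM over the 6 libraries.

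Macrophages also express Selenop, and markers of leukocytes differed in the same libraries. The 8 macrophage and dendritic cell markers summed to 2.53, 2.43 and 2.58 FPKM in atorvastatin and 3.93, 5.65 and 2.61 FPKM in control libraries. Of the 8, 5 stayed under 1 FPKM in every library, Adgre1, the macrophage marker, was at 0 in atorvastatin replicate 2 and at most 0.194 FPKM elsewhere, and the complement gene C1qb reached 1.18 FPKM in control replicate 2. Single markers did not all follow the sum: Mrc1, the mannose receptor, was at 0.253 to 0.369 FPKM in atorvastatin and 0.116 to 0.251 FPKM in control libraries, and Cd68 was lowest in control replicate 1, at 0.995 FPKM. The 7 general leukocyte markers summed to 3.13, 3.72 and 3.77 FPKM in atorvastatin and 6.15, 6.67 and 3.77 FPKM in control libraries. Control replicates 1 and 2 were thus high for Selenop and for both marker sums, though Selenop was highest in replicate 1 and the macrophage sum in replicate 2. Control replicate 3 differed between them. It was below every atorvastatin library for Selenop, just above them all for the macrophage sum, and within their range for the leukocyte sum. The part of these cells in the level of Selenop was not tested, and in such bulk RNA fewer cells of a type and less RNA per cell cannot be told apart.

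**Figure D4:**
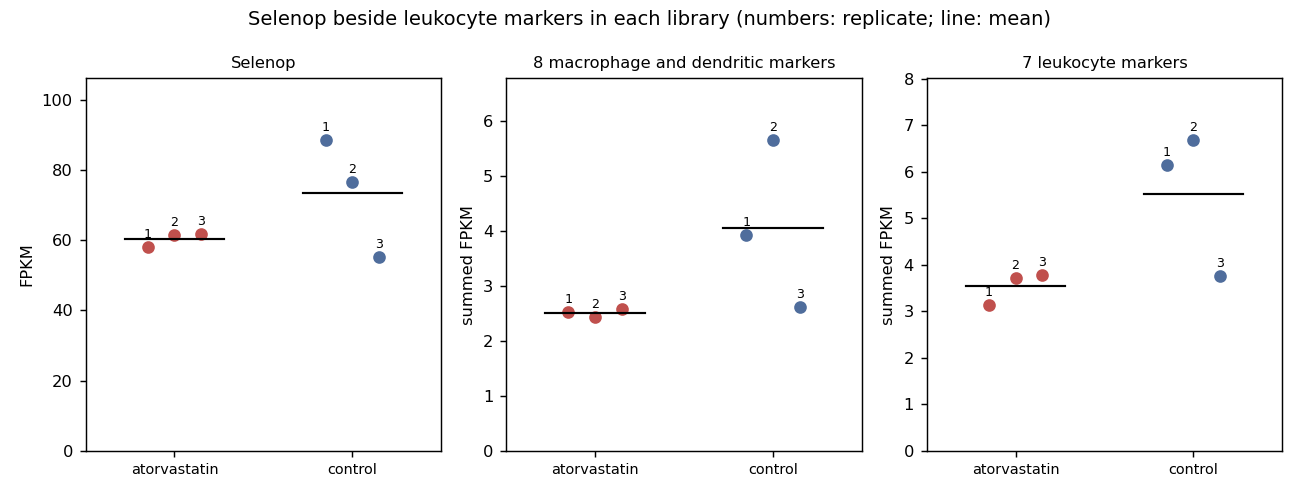
Selenop FPKM (left), the summed FPKM of 8 macrophage and dendritic cell markers (middle) and of 7 leukocyte markers (right) in atorvastatin (red) and control (blue) libraries, with replicate numbers and the group mean as a line. In all 3 panels control replicates 1 and 2 lie above the atorvastatin libraries and control replicate 3 lies near or below them.

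Selenow encodes selenoprotein W, a small protein with a thioredoxin-like fold (ENSMUSG00000041571, chromosome 7, 15917208 to 15922402, minus strand). Its level was 36.7, 38.1 and 40.1 FPKM in atorvastatin and 44.0, 40.9 and 43.0 FPKM in control libraries. Every atorvastatin library lay below every control library, by a narrow margin between the nearest pair. The means were 38.3 ± 1.73 FPKM in atorvastatin and 42.6 ± 1.54 FPKM in control (SD, n = 3 each), a difference of -10.2%. The log2 fold change was -0.15 ± 0.056 (95% interval -0.28 to -0.019), with an unadjusted p of 0.030 and a limma adjusted p of 0.350, so it did not pass. Over 15 other settings of the processing, its log2 fold change stayed negative, between -0.18 and -0.12, with limma adjusted p of 0.296 to 0.620.

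Selenok encodes selenoprotein K, a protein of the endoplasmic reticulum membrane that takes part in the degradation of misfolded proteins and in protein palmitoylation (ENSMUSG00000042682, chromosome 14, 29968308 to 29975662, plus strand). It had 29.7, 26.2 and 27.1 FPKM in atorvastatin and 28.3, 27.4 and 29.6 FPKM in control libraries. Atorvastatin replicates 2 and 3 were below every control library and atorvastatin replicate 1 above them all (log2 fold change -0.038 ± 0.063, 95% interval -0.19 to 0.11, limma adjusted p = 0.870). Of 7 similar loci listed in the files, 6 are annotated Selenok pseudogenes that were at or near 0, with at most 0.104 FPKM, and the non-coding gene Gm48228, which matches at 98.3% over 404 bases, was at 1.83 to 3.04 FPKM in atorvastatin and 2.03 to 3.07 FPKM in control libraries.

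Trit1 (ENSMUSG00000028653, chromosome 4, 123016597 to 123054949, plus strand) had 5.30, 4.57 and 5.04 FPKM in atorvastatin and 4.53, 4.56 and 4.43 FPKM in control libraries. The control libraries were nearly equal, and every atorvastatin library was above them, though atorvastatin replicate 2, at 4.57 FPKM, lay only just above control replicate 2, at 4.56 FPKM. The means were 4.97 ± 0.37 FPKM in atorvastatin and 4.51 ± 0.07 FPKM in control (SD, n = 3 each), with a log2 fold change of 0.12 ± 0.063 (95% interval -0.033 to 0.26, limma adjusted p = 0.540). Trit1 did not pass in any of 14 other settings, at log2 fold changes of 0.08 to 0.16.

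The part of the mevalonate pathway that includes the supply of the isopentenyl donor gave no call either, though its genes shared a sign. All 7 genes of the mevalonate segment up to farnesyl diphosphate had positive fold changes, the median being 0.33 on the log2 scale, and the groups did not overlap in 6 of them, all higher in atorvastatin, against 12% of all tested genes. None passed in limma, and 6 had an unadjusted p under 0.05, also against 12%. Fdps, which makes farnesyl diphosphate and acts after the donor is formed, averaged 29.1 ± 1.65 FPKM in atorvastatin and 20.8 ± 1.49 FPKM in control libraries (log2 fold change 0.47, limma adjusted p = 0.0557). Idi1, which converts isopentenyl diphosphate to the form that TRIT1 uses, averaged 51.7 ± 3.23 FPKM in atorvastatin and 41.2 ± 1.77 FPKM in control libraries (log2 fold change 0.32, limma adjusted p = 0.106). Mvd, which makes isopentenyl diphosphate, averaged 23.2 ± 0.903 FPKM in atorvastatin and 17.1 ± 2.23 FPKM in control libraries (SD, n = 3 each for all 3 genes, limma adjusted p = 0.137).

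Of the 24 mouse selenoprotein genes 19 were tested and 0 passed in limma, with 12 positive and 7 negative fold changes and a median of 0.019 on the log2 scale, against 0.018 for all tested genes. At an unadjusted p under 0.05 there was again only Selenow. The smallest p-values after it were those of Selenom, a protein of the endoplasmic reticulum, with 18.6 ± 2.21 FPKM in atorvastatin and 16.0 ± 1.08 FPKM in control libraries (log2 fold change 0.20, limma adjusted p = 0.452), and of Selenof, a partner of the glycoprotein folding sensor, with 20.2 ± 0.943 FPKM in atorvastatin and 18.6 ± 0.668 FPKM in control libraries (log2 fold change 0.12, limma adjusted p = 0.472). Dio2, Dio3, Selenon and Selenov stayed under 1 FPKM, as did Gpx3. Dio1, a deiodinase that converts thyroid hormone to its active form and is named here after its values were seen, averaged 13.1 ± 1.77 FPKM in atorvastatin and 11.6 ± 0.269 FPKM in control libraries, with overlapping groups. The 4 mRNAs known as sensitive to selenium in mouse colon did not share a sign. Selenow was lower, whereas Gpx1, Selenom and Selenoh had positive fold changes, that of Gpx1 resting on control replicate 3. Selenoh was at 6.67, 4.19 and 4.48 FPKM in atorvastatin and 4.63, 4.63 and 5.23 FPKM in control libraries. Only atorvastatin replicate 1 was thus above the control libraries for Selenoh, and atorvastatin replicates 2 and 3 were below them all.

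**Figure D5:**
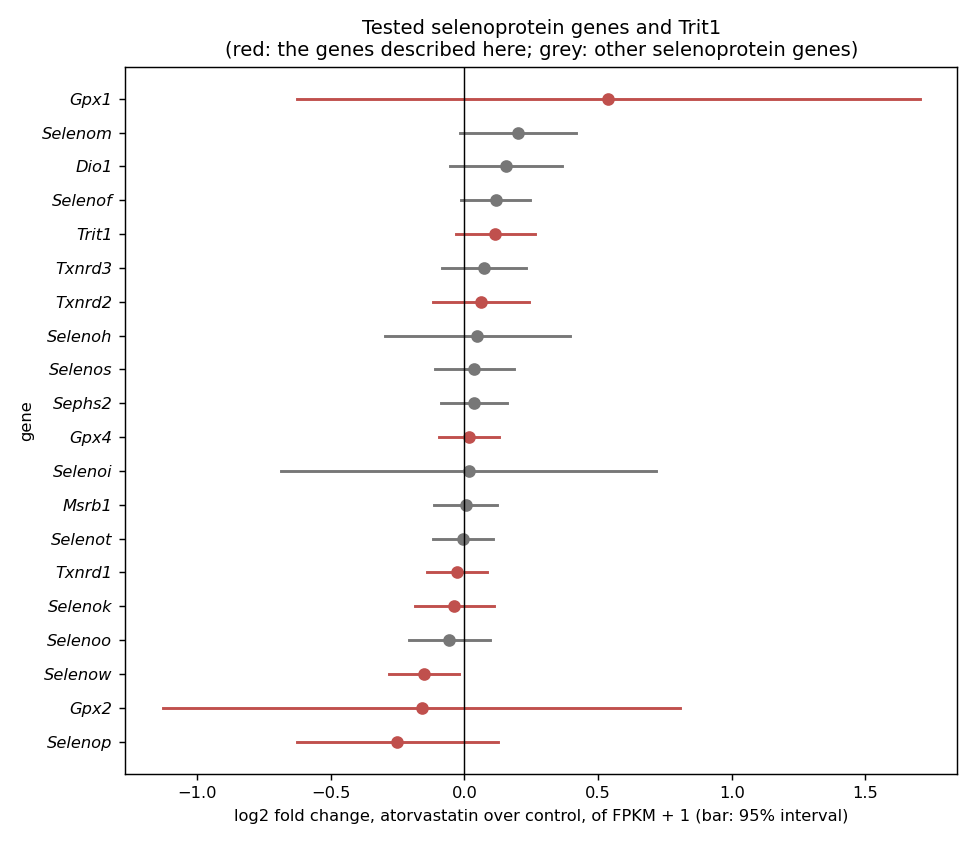
Log2 fold change of FPKM + 1 in atorvastatin over control (horizontal axis) with its 95% interval, for the 19 tested selenoprotein genes and Trit1 (rows, by fold change), with the genes described here in red. All intervals but that of Selenow include 0, and Gpx1, Gpx2 and Selenoi have the widest intervals.

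Grouped by the position of the first selenocysteine codon, the tested selenoprotein genes had overlapping ranges of fold change. In 12 of them this codon lies more than 50 bases upstream of the last exon junction, the arrangement that can expose an mRNA to nonsense-mediated decay. Of the 12, 6 are Gpx1, Gpx2, Gpx4, Txnrd2, Selenop and Selenow. On the Txnrd2 transcript the coding part itself ends upstream of the last junction, at base 1609 against base 1689. The same holds for Selenow, at base 386 against base 404. The median of the 12 genes was 0.033 on the log2 scale, with 8 positive and 4 negative values (-0.25 to 0.54). The highest value is that of Gpx1, whose sign rests on control replicate 3. In the other 7, among them Txnrd1 and Selenok, the median was 0.016, with 4 positive and 3 negative values (-0.057 to 0.073). These counts describe genes of the same 6 libraries and were not tested.

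Genes of selenocysteine synthesis and insertion also gave no call. All 11 were tested, 7 with positive and 4 with negative fold changes and a median of 0.057 on the log2 scale, and 0 had an unadjusted p under 0.05 in limma. The smallest p-values were those of Eefsec, Secisbp2 and Trit1. Eefsec, the elongation factor that brings the selenocysteine tRNA to the ribosome, had 3.40, 4.23 and 3.35 FPKM in atorvastatin and 3.00, 2.79 and 3.34 FPKM in control libraries (log2 fold change 0.20, limma adjusted p = 0.450). Secisbp2, which binds the SECIS element, had 4.88, 4.34 and 4.45 FPKM in atorvastatin and 5.18, 4.97 and 4.71 FPKM in control libraries (log2 fold change -0.10, limma adjusted p = 0.609). Sepsecs, which makes the last step of selenocysteine synthesis on the tRNA and is named after its values were seen, fell into high and low libraries in both groups, with 8.68, 3.42 and 7.74 FPKM in atorvastatin and 7.91, 3.51 and 3.11 FPKM in control libraries. Selenoi, which takes part in phospholipid synthesis and was chosen in the same way, was likewise split within both groups, at 4.26, 1.85 and 3.84 FPKM in atorvastatin and 4.07, 3.67 and 1.97 FPKM in control libraries. Atorvastatin replicate 2 and control replicate 3 were low for both genes, whereas control replicate 2 was low for Sepsecs alone.

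Among the glutathione and thioredoxin partners of these enzymes, 15 genes were tested and 0 passed, with 10 positive and 5 negative fold changes and a median of 0.054 on the log2 scale. At an unadjusted p under 0.05 there were 2 of 15, Prdx1 and Gsr, a share near the 12% of all tested genes. Prdx1, a peroxiredoxin that takes its electrons from thioredoxin, had 101, 107 and 103 FPKM in atorvastatin and 87.9, 89.4 and 92.2 FPKM in control libraries. Its groups did not overlap (log2 fold change 0.21 ± 0.05, unadjusted p = 0.00445, limma adjusted p = 0.169). Gsr, glutathione reductase, had 36.2, 38.0 and 37.2 FPKM in atorvastatin and 33.4, 31.1 and 34.9 FPKM in control libraries (log2 fold change 0.16, limma adjusted p = 0.328), and Prdx4, the peroxiredoxin of the endoplasmic reticulum, came next (log2 fold change 0.18, limma adjusted p = 0.437).

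Of 9 NRF2 targets, Gpx2 and Txnrd1 among them, 8 were tested. None passed in limma and 0 had an unadjusted p under 0.05, with 3 positive and 5 negative fold changes. Hmox1, heme oxygenase, had 1.66, 1.96 and 1.72 FPKM in atorvastatin and 1.86, 2.38 and 2.55 FPKM in control libraries (log2 fold change -0.23, limma adjusted p = 0.420). Gclm, a subunit of the enzyme that limits glutathione synthesis, had 9.92, 8.59 and 11.0 FPKM in atorvastatin and 7.94, 9.70 and 7.49 FPKM in control libraries (log2 fold change 0.21, limma adjusted p = 0.527). Nqo1, a quinone reductase, overlapped likewise between the groups (log2 fold change -0.11, limma adjusted p = 0.793). Srxn1, sulfiredoxin, named after its values were seen, was lowest in control replicate 3, as Gpx1 was, at 21.0, 29.5 and 19.9 FPKM in atorvastatin and 28.7, 29.7 and 12.7 FPKM in control libraries.

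The genes of lipid peroxide handling and ferroptosis, a list that includes Gpx4, gave 0 calls among 8 tested, with none at an unadjusted p under 0.05, 7 positive and 1 negative fold change and a median of 0.015 on the log2 scale. Acsl4, which activates polyunsaturated fatty acids for use in membrane lipids, had 4.60, 4.96 and 4.10 FPKM in atorvastatin and 3.90, 3.06 and 4.15 FPKM in control libraries (log2 fold change 0.24, limma adjusted p = 0.417). The next smallest p-values were those of Tfrc, the transferrin receptor (log2 fold change 0.16, limma adjusted p = 0.75), and Slc3a2, a chain of the cystine transporter (log2 fold change -0.075, limma adjusted p = 0.83). Slc7a11, the other chain, stayed under 1 FPKM. Of the receptors that take up selenoprotein P, Lrp1 was tested, at 8.86, 11.5 and 10.9 FPKM in atorvastatin and 12.7, 10.4 and 10.8 FPKM in control libraries (log2 fold change -0.11, limma adjusted p = 0.75). Lrp8 stayed under 1 FPKM, and Lrp2 was listed at 0 throughout.

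The genes whose log2(FPKM + 1) followed that of Trit1 most closely over the 6 libraries were Pdha1, a subunit of pyruvate dehydrogenase (Pearson r = 0.987), Suz12, a subunit of the Polycomb complex PRC2 (r = 0.974), and Mettl27 (r = 0.974). Like Trit1, these were higher in atorvastatin replicates 1 and 3 than in the other libraries, with Suz12 at 15.4, 7.82 and 14.8 FPKM in atorvastatin and 6.76, 6.90 and 6.65 FPKM in control libraries. For Gpx2 they were Zfp746 (r = 0.996), Hs6st1, a heparan sulfate sulfotransferase (r = 0.993), and Phrf1 (r = 0.992), each highest in control replicate 1 and lowest in control replicate 2. Zfp746 was at 2.86, 2.91 and 2.89 FPKM in atorvastatin and 3.35, 2.65 and 2.88 FPKM in control libraries, a much narrower range than that of Gpx2. These coefficients rest on 6 libraries that share their depth and scaling. They are the highest among the tested genes once the members and predicted genes are left out.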

How the data were processed

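The authors deposited 1 FPKM value per gene and library; the unit was read from the values, which are not whole-numbered and sum to 407857 to 430832 per library. The mm10 build, Bowtie and FastQC 0.11.2 are named per the submitters' processing notes. The quantifier, annotation, strand setting and handling of multiply mapping reads are not given in the sources used here. FPKM values carry no read totals. The commonest non-zero value of short genes gave depths within 0.996 to 1.14 of control replicate 1, and control replicate 3 had the greatest. Only the spread between libraries shows the precision.

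Groups were compared in limma 3.58.1 (R 4.3.3), two-sided, with trended and robust empirical Bayes, on log2(FPKM + 1), which understates changes of low genes. Genes needed at least 1 FPKM in at least 3 libraries, p-values were Benjamini-Hochberg adjusted over all 11644, and the fit was tested on simulated data. The members and lists were chosen with earlier results of these data known. Every member is named, with the 3 smallest p-values of each list and the 3 genes closest to Trit1 and to Gpx2, predicted genes left out. A gene table gave symbols to 99.7% of identifiers, and spans, junctions and codons from GENCODE M21 (GRCm38, which mm10 denotes), on the longest complete coding transcript with a consensus coding sequence. Similar transcripts were sought with BLAST.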

Additional observations from a re-analysis of the deposited data

How the results depend on the processing

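Under all 15 alternatives (a pseudocount of 0.1, no filter or a filter of 5 FPKM, 4 other scalings, plain empirical Bayes, the replicate block and each library left out) the number of called members, selenoprotein genes and selenocysteine machinery genes was 0. Of 133 alternative fold changes of the 9 tested members 130 kept their sign and stayed uncalled, and 3 changed sign: Gpx1 with control replicate 3 left out (-0.068), Gpx2 with control replicate 1 left out (0.32) and Gpx4 under median-ratio scaling (-0.0034). With each library left out in turn, Gpx1 ran from -0.068 to 0.85 and Gpx2 from -0.52 to 0.32. The filter of 5 FPKM left no value for Trit1 and Txnrd2. Over all genes the 47 calls became 2 with no filter. With a library left out they ranged from 2 to 67: leaving out control replicates 1, 2 and 3 gave 2, 30 and 67, and leaving out atorvastatin replicates 1 and 3 gave 13 and 17. The cause was not tested. With the replicate block the count over all genes was 1. Same-numbered libraries did not deviate together (r = -0.139, -0.106 and 0.0136 over tested genes), so the numbers were not taken to pair the libraries. The median of all tested genes lay between -0.00091 and 0.028 on the log2 scale over settings. The number of reads behind each value is unknown.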
